A study of Mus musculus with 3 samples.

Results

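The collagen genes are the genes of the triple-helical proteins that give the extracellular matrix its strength. They were taken here as every gene whose symbol is Col, a number, the letter a and a number, which gave 44 of the 21153 gene symbols on the array. Of these 44 genes, 11 code for fibrillar chains (types I, II, III, V, XI, XXIV and XXVII), 6 for type IV chains of basement membranes, and 27 for other types. For 27 of the 44 genes a probe stood well above background in the same channel on each of the 3 arrays, or in both channels. These were 8 fibrillar, 5 type IV and 14 other genes, and they are the ones that were tested.

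The tissue was whole brown fat, in which mitochondria burn fuel to make heat, and 3 Agilent arrays each compared a pair of samples in different dye colours. Each array held RNA of an Ad-Lkb1 mouse, of strain C57BL/6J per the labels, in the Cy5 channel, and RNA of a wild-type littermate, of strain C57BL/6, in the Cy3 channel. All were males, 10 weeks old and fed regular chow, and the design text counts the 3 samples of each genotype as biological replicates. The series concerns deletion of liver kinase B1 (LKB1, encoded by Stk11). The promoter that drives the deletion and the cells in which it acts are not given in the sources used here. Dye, strain name and genotype run together on every array and cannot be told apart.

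Fibrillar collagens assemble into the cross-striated fibrils of connective tissue, type IV chains form the sheet-like network of the basement membrane that surrounds each adipocyte and capillary, and type VI chains form beaded filaments between fibrils and membrane. Other types coat fibrils, anchor membranes or span the cell membrane. In fat, fibroblast-like stromal cells are a known major source of fibrillar collagen, while adipocytes and vessel cells make type IV.

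The proximal promoters of 4 collagen genes are shown because they had high ratios (Col5a3 and Col10a1) or encode main chains of the fibrils of fat tissue (Col3a1 and Col1a2). Each is the 250 bases before the gene's start on the gene's own strand, from RefSeq on GRCm38.p6. The windows are chr9:20815068-20815317 (minus strand) for Col5a3, chr10:34389731-34389980 (plus strand) for Col10a1, chr1:45311288-45311537 (plus strand) for Col3a1 and chr6:4505368-4505617 (plus strand) for Col1a2. Capitals mark every match, on either strand, to the letters of 3 classical promoter elements. The CCAAT box was searched as CCAAT, which reads ATTGG on the opposite strand. The GC box was searched as GGGCGG, which reads CCGCCC there, and the TATA box as TATAAA, which reads TTTATA there.
Col5a3: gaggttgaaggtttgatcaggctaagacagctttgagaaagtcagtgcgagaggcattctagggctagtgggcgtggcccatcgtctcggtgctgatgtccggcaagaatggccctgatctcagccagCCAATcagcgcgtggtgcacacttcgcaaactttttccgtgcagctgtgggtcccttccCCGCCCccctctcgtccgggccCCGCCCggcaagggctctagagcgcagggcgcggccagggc
Col10a1: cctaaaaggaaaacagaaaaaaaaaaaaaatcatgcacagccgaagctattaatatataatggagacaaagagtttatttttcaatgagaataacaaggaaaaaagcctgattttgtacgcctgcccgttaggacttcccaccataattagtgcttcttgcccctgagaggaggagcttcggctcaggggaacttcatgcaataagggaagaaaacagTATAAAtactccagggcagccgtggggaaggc
Col3a1: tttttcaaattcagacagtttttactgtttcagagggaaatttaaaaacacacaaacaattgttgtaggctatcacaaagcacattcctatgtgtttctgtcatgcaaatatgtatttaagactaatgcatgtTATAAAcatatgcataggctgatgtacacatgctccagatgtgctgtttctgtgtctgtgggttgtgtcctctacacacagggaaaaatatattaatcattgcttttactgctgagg
Col1a2: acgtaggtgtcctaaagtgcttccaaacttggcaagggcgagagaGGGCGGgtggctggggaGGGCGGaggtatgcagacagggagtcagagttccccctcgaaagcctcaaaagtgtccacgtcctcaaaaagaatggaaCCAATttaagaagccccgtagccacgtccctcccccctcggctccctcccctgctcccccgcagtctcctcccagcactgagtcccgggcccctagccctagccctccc

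In these letters the TATAAA of Col10a1 began 32 bases before the start, and that of Col3a1 began 117 bases before it. Col5a3 held a CCAAT 122 bases before the start and CCGCCC 63 and 41 bases before it, and Col1a2 held a CCAAT at 109 bases and GGGCGG at 205 and 188 bases. The table held 38 windows of 35 collagen genes. The GC box letters stood in 22 of these 38 windows (57.9%), against 32.7% of all 32851 promoter windows of the same length. CCAAT stood in 13 of the 38 (34.2%), against 33.8% of all windows, and TATAAA in 5 of the 38 (13.2%), against 12.4%. Among collagen genes that rose in Ad-Lkb1 tissue, 6 of 10 windows of 9 genes held the GC box letters (60%). Among those tested that did not pass, 10 of 15 windows of 14 genes did (66.7%). A match is a description of the letters and not a factor's site.

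Per channel and array, the share of features clearly brighter than background was 46.7% to 51.3%, and no spot was saturated. Stk11, the deleted gene, had a mean log2 ratio of -1.20 ± 0.056 (SD, n = 3 arrays; limma, adjusted p = 0.0105), with intensities of 328, 353 and 332 in Ad-Lkb1 tissue, against 787, 795 and 744 in wild-type tissue. The position of its probe in the gene was not analysed here, so this reading is not a check of the deleted part. Over all 19327 features tested, which are named genes and unnamed probes, the ratios of the array pairs correlated across features with r = 0.73, 0.36 and 0.50. Features are not independent replicates, and array 3 stood further from the others.

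Of the 27 collagen genes tested, 11 rose in Ad-Lkb1 tissue and none fell (limma, Benjamini-Hochberg adjusted p under 0.05 over all 19327 features). Over all features 4.78% were called higher and 3.92% lower. The 11 were the fibrillar genes Col5a3, Col27a1, Col3a1, Col1a2, Col5a1 and Col1a1, the type VI genes Col6a3, Col6a1 and Col6a2, the fibril-coating Col12a1 and the network-forming Col10a1. Their fold changes ran from 1.63 to 3.93. No type IV gene passed the threshold. At an unadjusted p under 0.05, 16 of the 27 were higher and 1 was lower, against 14.3% and 15% of all features.

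The spread of the ratios was broad. The median log2 ratio of the 27 genes was 0.47, against -0.01 for all features. Of the 27 genes, 17 (63%) had a ratio above 0 on every array, as had 24% of all features. A ratio below 0 on every array was found for 4 of the 27, against 27.7% of all features. In normalised intensity, the lowest Ad-Lkb1 sample stood above the highest wild-type sample for 16 of the 27 genes, against 17.7% of all features. The highest Ad-Lkb1 sample stood below the lowest wild-type sample for 4 of the 27, against 18.6%, and the samples overlapped for the other 7. Normalised intensity is the channel's brightness after background correction, with an added offset of 50, so ratios of dim genes are understated. It is comparable between samples for a probe, not between probes.

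The ratios of the 27 genes correlated between the 3 arrays, with r across genes of 0.88 for arrays 1 and 2, 0.91 for arrays 1 and 3 and 0.87 for arrays 2 and 3. These genes are few, and each array's ratios share a pair of RNA samples, so the values are a description.

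With array 1 left out limma called 0 collagen genes and 0 features in all, with 15 collagen genes higher and 1 lower at an unadjusted p under 0.05, against 9.95% and 10.4% of all features. With array 2 left out it also called 0, with 15 collagen genes higher and none lower at that p, against 9.3% and 9.13% of all features. With array 3 left out it called 12 collagen genes higher, the 11 and Col18a1, and none lower, against 6.89% and 3.73% of all features. With each array centred on its median in place of loess, 5 collagen genes were higher and 1 (Col7a1) was lower, against 2.01% and 50.2% of all features, whose median was -0.42.

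**Figure D1:**
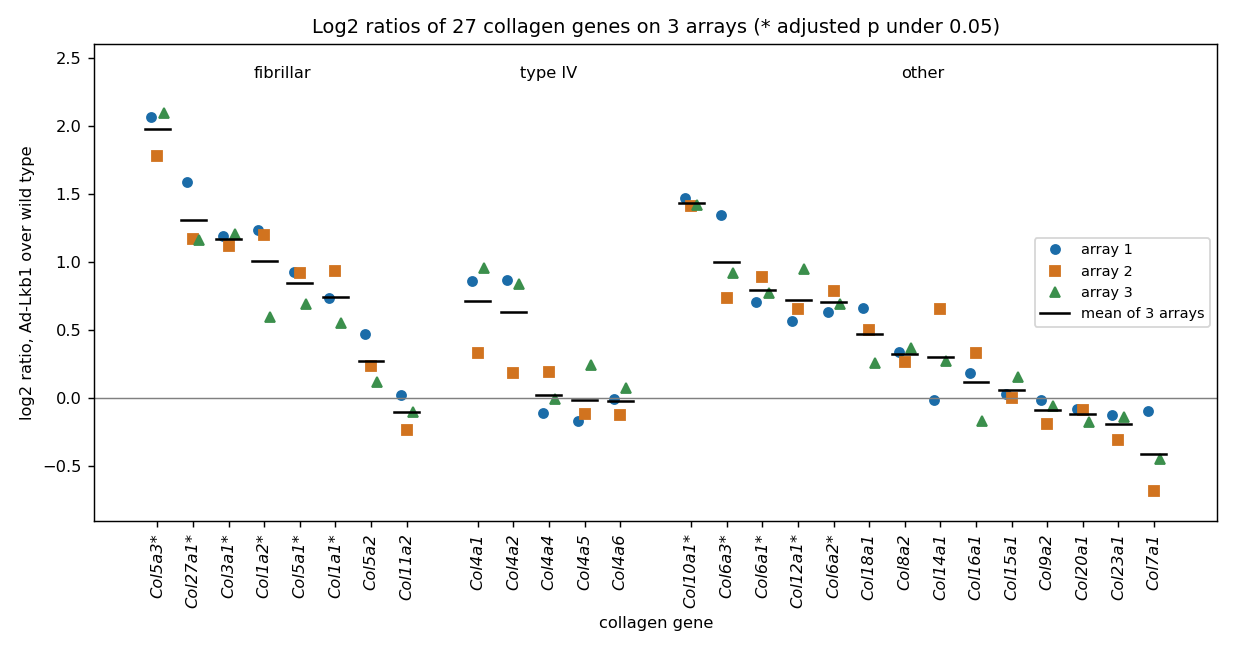
Vertical axis, log2 of Ad-Lkb1 over wild-type signal for the 27 collagen genes tested, in 3 classes, with a symbol for each of the 3 arrays and a bar for their mean; asterisks mark adjusted p under 0.05. There, 6 of 8 fibrillar genes, none of 5 type IV genes and 5 of 14 other genes carry an asterisk, and Col5a3 stands highest with a mean of 1.98. Over all features 4.78% were called higher and 3.92% lower.

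Among the fibrillar genes, 6 of 8 rose, against 4.78% of all features. The median log2 ratio of the class was 0.93 (1.05, 1.02 and 0.64 on arrays 1 to 3). Col1a1 and Col1a2 code for the chains of type I collagen, the main fibril protein of connective tissue. Col1a2 had intensities of 6817, 7034 and 6238 in Ad-Lkb1 tissue, against 2892, 3070 and 4132 in wild-type tissue. The groups did not overlap, and the wild-type sample of array 3 was the highest of its group. Col1a2 rose 2.01-fold (log2 ratio 1.01 ± 0.36 SD, n = 3, SE 0.15, adjusted p = 0.0342), with ratios of 1.24, 1.20 and 0.59. Col1a1 read 1163, 1282 and 1331 in Ad-Lkb1 tissue, against 697, 672 and 910.1 in wild-type tissue. It too had its highest wild-type value on array 3 and no overlap. Col1a1 rose 1.67-fold (0.74 ± 0.19, SE 0.098, adjusted p = 0.0283), with ratios of 0.74, 0.93 and 0.55. With median centring the log2 ratios were 0.30 for Col1a2 and 0.04 for Col1a1, and neither passed. The median of all features was then -0.42. Neither gene passed with the software's processed signals or with no filter on dim probes.

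Col3a1 encodes type III collagen, which forms thin fibrils with type I in skin, vessels and loose connective tissue. Its intensities were 4878, 4916 and 5359 in Ad-Lkb1 tissue, against 2142, 2271 and 2328 in wild-type tissue. Each Ad-Lkb1 sample was well over any wild-type sample, and both groups were tight. Col3a1 rose 2.25-fold (log2 ratio 1.17 ± 0.047 SD, n = 3, SE 0.068, adjusted p = 0.0105). Its ratio differed little between arrays, at 1.19, 1.11 and 1.20.

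Type V collagen is a minor partner of type I that helps start fibrils, and its chains are encoded by Col5a1, Col5a2 and Col5a3. Col5a3, the least widespread of the 3 chains, had intensities of 2353, 2096 and 2323 in Ad-Lkb1 tissue, against 563, 613 and 545 in wild-type tissue. Every Ad-Lkb1 sample was far above every wild-type sample. Col5a3 rose 3.93-fold (log2 ratio 1.98 ± 0.18 SD, n = 3, SE 0.094, adjusted p = 0.0105), with ratios of 2.06, 1.77 and 2.09. Col5a1 read 383, 356 and 332 in Ad-Lkb1 tissue, against 202, 189 and 205 in wild-type tissue. The groups were apart, and Col5a1 rose 1.80-fold (0.84 ± 0.13, SE 0.082, adjusted p = 0.0177), with ratios of 0.92, 0.92 and 0.69. Col5a2 stood nearer to background, with 97.9, 86.8 and 85.0 in Ad-Lkb1 tissue and 70.6, 73.8 and 78.2 in wild-type tissue. Its samples did not overlap, but its log2 ratio of 0.27 (0.47, 0.23 and 0.12) did not pass (adjusted p = 0.146). With median centring Col5a1 had a log2 ratio of 0.28, against a median of -0.42 for all features, and did not pass.

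Col27a1 encodes a fibrillar chain best known from cartilage. It read 514, 331 and 379 in Ad-Lkb1 tissue, against 171, 148 and 170 in wild-type tissue. The Ad-Lkb1 sample of array 1 was the highest, and the groups were apart. Col27a1 rose 2.47-fold (log2 ratio 1.30 ± 0.25 SD, n = 3, SE 0.11, adjusted p = 0.0153), with ratios of 1.59, 1.17 and 1.16. Col11a2, a chain of the type XI collagen of cartilage fibrils, was the lowest of the fibrillar class. Its log2 ratio was -0.11 (0.02, -0.24 and -0.105; adjusted p = 0.458), and in Ad-Lkb1 tissue it was well above background on 1 array only. The remaining fibrillar genes, Col2a1, Col11a1 and Col24a1, did not pass the filter on dim probes.

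**Figure D2:**
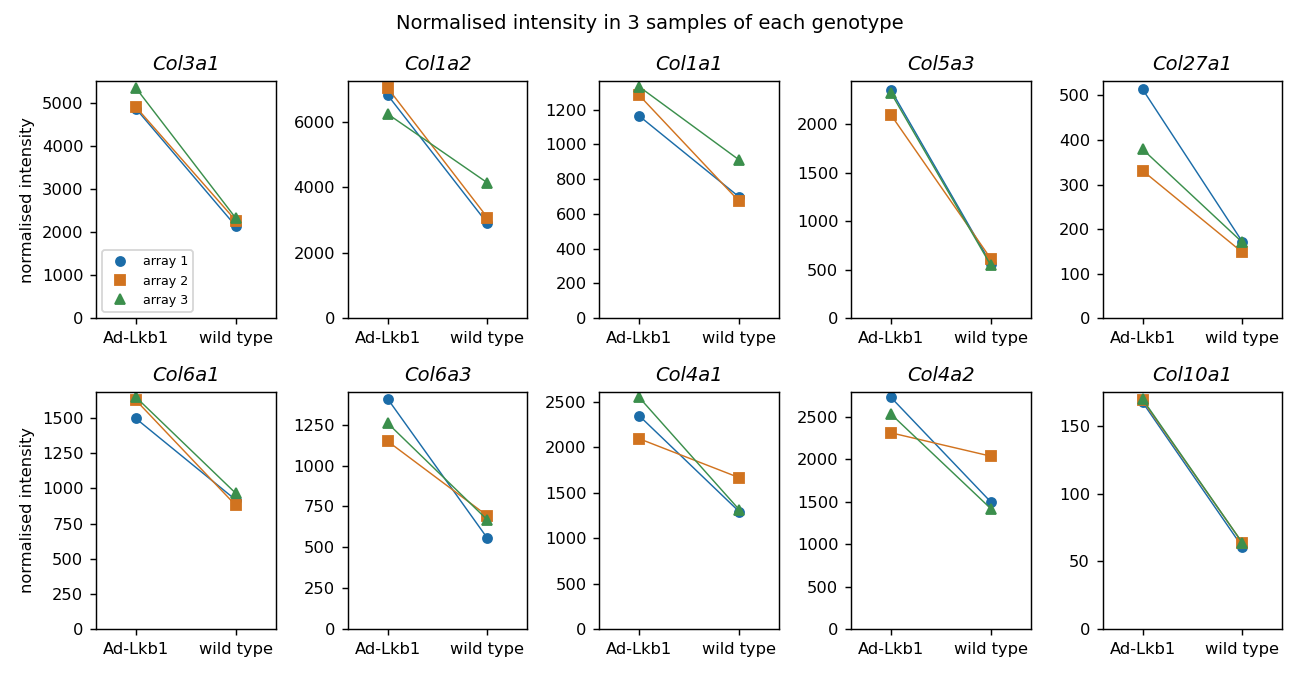
Normalised intensity (vertical axes, linear, from 0) of 10 collagen genes in Ad-Lkb1 samples (left) and wild-type samples (right), with a line joining the samples of an array. For Col3a1 the Ad-Lkb1 samples sit between 4878 and 5359, all above the wild-type samples; for Col4a2 the line of array 2 is nearly flat, at 2315 in Ad-Lkb1 and 2039 in wild type.

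Type IV collagen is the network of basement membranes, and its Col4a1 and Col4a2 chains are found in nearly all of them. Col4a1 had intensities of 2349, 2096 and 2551 in Ad-Lkb1 tissue, against 1293, 1667 and 1315 in wild-type tissue. Col4a2 had 2734, 2315 and 2537 in Ad-Lkb1 tissue, against 1499, 2039 and 1420 in wild-type tissue. For either gene the groups did not overlap, and the pair of array 2 was the closest, with the lowest Ad-Lkb1 and the highest wild-type value. The log2 ratio of Col4a1 was 0.72 ± 0.34 (SD; 0.86, 0.33 and 0.96; adjusted p = 0.0555) and that of Col4a2 was 0.63 ± 0.39 (0.87, 0.18 and 0.84; adjusted p = 0.0863). Neither passed the threshold, and with median centring the values were 0.004 and -0.08, against a median of -0.42 for all features. Col4a1 passed with no background subtraction and with a background offset of 10 (lowest adjusted p = 0.0485).

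Col4a4, Col4a5 and Col4a6 code for chains of more restricted membranes, such as those of the kidney filter. They lay close to background, between 77.2 and 84.0 in Ad-Lkb1 tissue and between 68.8 and 92.8 in wild-type tissue. The log2 ratio of Col4a4 was 0.02 (-0.11, 0.19 and -0.01; adjusted p = 0.897). That of Col4a5 was -0.015 (-0.17, -0.12 and 0.24; adjusted p = 0.949), and that of Col4a6 was -0.02 (-0.01, -0.13 and 0.08; adjusted p = 0.896). None of the 3 kept its sign over the arrays. Col4a3 did not pass the filter. The median of the 5 type IV genes was therefore that of a dim probe, 0.02, with 0.72 as the highest and -0.02 as the lowest value in the class.

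The class medians differed on each array, with no test of that difference. The fibrillar median exceeded the type IV median by 1.06, 0.84 and 0.40 on the log2 scale on arrays 1 to 3. It exceeded the median of the other types by 0.79, 0.61 and 0.38. Both gaps were narrowest on array 3. There the fibrillar median itself was lowest, and 5 of the 8 fibrillar genes had their lowest ratio. The type IV class holds the dim Col4a4, Col4a5 and Col4a6, whose ratios the offset understates. The brighter Col4a1 and Col4a2 had 0.86 and 0.87 on array 1 and 0.33 and 0.18 on array 2, below the fibrillar median. On array 3 they had 0.96 and 0.84, above that median.

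**Figure D3:**
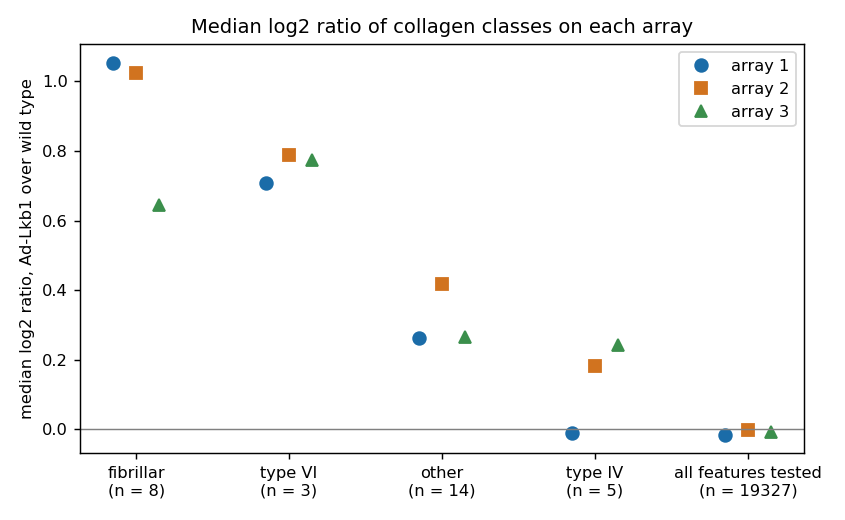
Median of the log2 Ad-Lkb1 over wild-type ratios (vertical axis) on each of the 3 arrays for the fibrillar, type VI, other and type IV collagen genes tested and for all 19327 features; type VI is also counted within other. The fibrillar symbols sit at 1.05, 1.02 and 0.64, the type IV symbols at -0.01, 0.18 and 0.24, and all features near 0. The type IV class holds the dim Col4a4, Col4a5 and Col4a6, whose ratios the offset understates. With an offset of 10 (not plotted) the type IV median over the mean ratios was 0.03 and the fibrillar median 1.05.

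Type VI collagen forms beaded filaments near cell surfaces, abundant around adipocytes, from the chains of Col6a1, Col6a2 and Col6a3. All 3 of these genes rose, against 4.78% of all features. Col6a1 read 1498, 1628 and 1650 in Ad-Lkb1 tissue, against 918, 879 and 965 in wild-type tissue. It rose 1.73-fold (log2 ratio 0.79 ± 0.092 SD, n = 3, SE 0.074, adjusted p = 0.0168), with ratios of 0.71, 0.89 and 0.77. Col6a2, its neighbour on chromosome 10, read 479, 556 and 499 in Ad-Lkb1 tissue, against 308, 323 and 309 in wild-type tissue. It rose 1.63-fold (0.70 ± 0.077, SE 0.072, adjusted p = 0.0193), and like Col6a1 it had its highest ratio on array 2 (0.63, 0.79 and 0.69). Col6a3, whose chain is cut to release endotrophin, read 1410, 1150 and 1261 in Ad-Lkb1 tissue, against 555, 692 and 667 in wild-type tissue. It rose 2.00-fold (1.00 ± 0.31, SE 0.14, adjusted p = 0.0294), and unlike its partners it had its lowest ratio on array 2 (1.35, 0.73 and 0.92). For each of the 3, every Ad-Lkb1 sample was above every wild-type sample, as for 17.7% of all features. With median centring none passed, at 0.08 for Col6a1, 0.08 for Col6a2 and 0.30 for Col6a3. The median of all features was then -0.42. Col6a3 also did not pass with no filter on dim probes (limma, adjusted p = 0.0616). The other type VI genes, Col6a4, Col6a5 and Col6a6, did not pass the filter on dim probes.

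Col10a1 encodes the network collagen of hypertrophic cartilage. Its probe cleared background on all 3 arrays in Ad-Lkb1 tissue and on 0 arrays in wild-type tissue, so it was tested only through the genotype in which it was high. It read 168, 169 and 170.2 in Ad-Lkb1 tissue, against 60.6, 63.6 and 63.6 in wild-type tissue. The groups were tight and far apart. The measured log2 ratio was 1.44 ± 0.031 (SD, n = 3; adjusted p = 0.0105). No firm minimum fold can be given, since the wild-type reading lay above that of the dimmest well-measured probes. The log2 ratio was 1.17 with median centring, 2.41 with a background offset of 10 and 3.98 with the software's processed signals. In the last 2 settings Col10a1 stood above Col5a3, which had 2.11 and 2.13. Requiring both channels to be well above background left Col10a1 out, and 10 of the 24 collagen genes then tested were higher and 0 lower, against 4.76% and 4.29% of the features then tested.

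Its short-chain relative Col8a2, known from the membrane beneath the corneal endothelium, read 85.5, 86.5 and 87.8 in Ad-Lkb1 tissue, against 67.5, 72.05 and 68.2 in wild-type tissue. These dim groups did not overlap. The log2 ratio of 0.32 ± 0.053 (0.34, 0.26 and 0.365) did not pass (adjusted p = 0.0607), but it passed in the same direction in 4 other settings, where it reached 1.13. Its chain partner Col8a1 did not pass the filter.

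Col12a1 encodes a collagen that coats type I fibrils, one of the fibril-associated group. It read 117, 138 and 143 in Ad-Lkb1 tissue, against 79.3, 87.5 and 74.2 in wild-type tissue. The samples were apart, with the widest gap on array 3. Col12a1 rose 1.65-fold (log2 ratio 0.72 ± 0.20 SD, n = 3, SE 0.10, adjusted p = 0.0301), with ratios of 0.56, 0.65 and 0.95. It did not pass with no filter on dim probes. Of the other 4 tested members of this group, none passed. Col14a1 had a log2 ratio of 0.30 that changed sign over the arrays (-0.01, 0.65 and 0.27), and its other measured probe gave 0.01. Col16a1 had 0.115 (0.18, 0.33 and -0.17), with -0.001 by its other measured probe.

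Of the multiplexins, which lie at basement membranes and release endostatin-like fragments, neither passed. Col18a1 read 277, 251 and 257 in Ad-Lkb1 tissue, against 176, 177 and 215 in wild-type tissue. The groups did not overlap. Its log2 ratio was 0.47 (0.66, 0.50 and 0.26; adjusted p = 0.0612), 0.53 by a further probe, and -0.05 with median centring. It passed with no background subtraction (0.69) and with array 3 left out (0.58). Col15a1 had 0.06 (adjusted p = 0.64).

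The 3 lowest mean ratios were those of Col7a1, Col23a1 and Col20a1, and none of them passed. Col7a1, the anchoring fibril collagen beneath the epidermis, read 109, 111 and 104 in Ad-Lkb1 tissue, against 116, 179 and 141 in wild-type tissue. The wild-type samples were all higher but spread widely. The log2 ratio was -0.41 ± 0.30 (SD; -0.10, -0.69 and -0.45; adjusted p = 0.126), and Col7a1 passed with median centring at -0.75 (adjusted p = 0.012). In that setting 50.2% of all features were called lower, and the median of all features was -0.42. Col23a1, a membrane-spanning collagen, read 77.8, 75.5 and 73.7 in Ad-Lkb1 tissue, against 85.0, 93.6 and 81.0 in wild-type tissue. The samples were apart though dim. Its log2 ratio was -0.19 ± 0.10 (adjusted p = 0.187), its other measured probe gave -0.29, and it passed with the software's processed signals and the deposited ratios at -1.03. Col20a1, a fibril-associated collagen, had -0.115 (-0.08, -0.09 and -0.18; adjusted p = 0.347).

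Chains that share a molecule can be set side by side by their ratios on arrays 1 to 3. Col4a1 and Col4a2 moved together over the arrays, both lowest on array 2, and their genes lie head to head on chromosome 8, where their 300-base promoter windows overlap by 78 bases. Col1a1 and Col1a2, on different chromosomes, were both lowest on array 3. Col5a1 passed where Col5a2 did not. Col5a2 is the nearest protein-coding neighbour of Col3a1 on chromosome 1, and the ratio of Col3a1 was 1.17, against 0.27 for Col5a2. The difference between these neighbours was not tested, and the probe of Col5a2 was dim.

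The 17 genes that did not pass the filter on dim probes were Col2a1, Col4a3, Col6a4, Col6a5, Col6a6, Col8a1, Col9a1, Col9a3, Col11a1, Col13a1, Col17a1, Col19a1, Col22a1, Col24a1, Col25a1, Col26a1 and Col28a1. Many belong to cartilage, skin, muscle or nerve matrix. For 14 of them no channel was well above background on any array, and for Col6a5, Col9a1 and Col25a1 this held on some arrays. Their readings ran from 56.0 to 83.3 in Ad-Lkb1 tissue and from 56.7 to 84.5 in wild-type tissue, and their log2 ratios from -0.07 to 0.12. Near background a ratio is pulled to 0 by the offset, so a change that left both genotypes near background was not detectable here. With all 44 genes tested, 7 were higher and none lower (limma, adjusted over 36798 features), against 1.47% and 1.34% of those features. At an unadjusted p under 0.05, 16 were higher and 3 lower, against 9.54% and 10.3%.

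Collagen chains are hydroxylated, folded, trimmed, cross-linked and later degraded by other proteins. A list of 47 symbols covered these steps, collagen receptors and inducers of collagen, with Ctgf an older symbol of the listed Ccn2. Of these 37 were tested, and 8 rose and 1 fell, with 8.70% of all features called in either direction. The list median was 0.29. Pcolce, which enhances removal of the procollagen C-propeptide, rose 4.08-fold (log2 ratio 2.03, adjusted p = 0.0105), and Adamts2, which removes the N-propeptide, rose 1.85-fold (adjusted p = 0.0204). The cross-linking lysyl oxidase relatives Loxl1 and Loxl2 rose 2.41-fold and 1.78-fold (adjusted p = 0.0195 and 0.0139). Of the proteases that cut collagen, Ctsk rose 2.55-fold (adjusted p = 0.0111) and Mmp2 rose 1.87-fold (adjusted p = 0.0195). Lox (log2 ratio 0.58) and Bmp1 (0.55) were the others that rose. Itga1, a subunit of a collagen receptor, fell by 0.645 on the log2 scale (adjusted p = 0.0227). None of the tested genes that hydroxylate or otherwise modify the chains' prolines and lysines passed. The folding chaperone Serpinh1 had a log2 ratio of -0.02 and did not pass. The genes that rose were thus those of propeptide removal, cross-linking and degradation.

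In whole tissue, fewer cells of a type and less RNA per cell cannot be told apart, so markers of the cells that could hold collagen RNA are given beside the collagen values. Of 7 fibroblast markers all were measured, and 3 rose and none fell, against 4.78% and 3.92% of all features. Their median log2 ratio was 0.595 (0.30, 0.89 and 0.57 on arrays 1 to 3). Their summed intensity ran from 12640 to 19160 in Ad-Lkb1 tissue, against 7829 to 10100 in wild-type tissue. Sums here and below add probes whose brightness is not comparable, and the brightest probes weigh most. They are a description and not a measure of cell number. Lum rose 2.83-fold (adjusted p = 0.0127) and Fap had a log2 ratio of 0.63 (adjusted p = 0.031). The list was not uniform, since Pi16 changed sign over the arrays (-0.44, 0.84 and 0.28) and did not pass. Of 6 macrophage markers, 5 rose and none fell, against the same shares of all features, with a median of 1.75 (2.02, 2.12 and 1.12). Their sum ran from 5620 to 6545 in Ad-Lkb1 tissue, against 1662 to 2892 in wild-type tissue, with Trem2 at 3.39 (adjusted p = 0.0105) and Cd68 at 2.24 (adjusted p = 0.0229). Cd14, which did not pass, had -0.03 (0.29, 0.13 and -0.50). The macrophage and the fibrillar medians were lowest on array 3, while the fibroblast median was lowest on array 1, where the fibrillar median was highest. With 3 arrays these orders are a description. The part of these cells in the collagen ratios was not tested.

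Against the tissue's label, all 7 brown adipocyte markers were above background. Of these 3 rose and none fell, against 4.78% and 3.92% of all features. Their median was 0.45, with a sum of 336500 to 374500 in Ad-Lkb1 tissue, against 206000 to 230900 in wild-type tissue. Ucp1 had 1.48 (adjusted p = 0.0114) and Cidea 0.55 (adjusted p = 0.0303). Elovl3 (0.45, which passed) and Fabp4 (0.48, which did not) were also above 0 on every array. The list was not uniform, since Plin1 had -0.26 (-0.37, -0.23 and -0.19) and Adipoq -0.13. Ppargc1a differed widely between arrays (-0.935, 0.13 and 1.98). These last 3 did not pass. Of 6 endothelial markers 1 rose and 1 fell, against the same shares of all features. Their median was -0.10, with a sum of 2512 to 2610 in Ad-Lkb1 tissue, against 2670 to 3006 in wild-type tissue. Kdr had -0.42 (adjusted p = 0.04) and Vwf 0.40 (adjusted p = 0.0408). None of 6 pericyte and smooth muscle markers passed, with a median of -0.04 and sums of 4396 to 6014 in Ad-Lkb1 tissue, against 4756 to 5445 in wild-type tissue.

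Skeletal muscle RNA differed between arrays in sign. Of 8 markers 5 were measured (not Ckm, Myh1 or Myh2) and none passed. Their median was -3.17, 2.36 and 3.90 on arrays 1 to 3, with a sum of 802.6 to 10760 in Ad-Lkb1 tissue, against 610.3 to 8855 in wild-type tissue. Acta1, Pvalb, Tnnt3 and Myh4 were below 0 on array 1 and above 0 on arrays 2 and 3. Mylpf differed far less between arrays (0.007, 0.03 and -0.225). The part of muscle RNA in the collagen ratios was not tested. The cartilage and tendon markers Tnmd, Acan and Matn1 were not above background. The other 3 of 6, led by Scx (0.28) and Comp (0.24), did not pass. Their median was 0.24, with a sum of 227 to 235 in Ad-Lkb1 tissue, against 193 to 214 in wild-type tissue. Scx and Comp cleared background on 3 arrays in Ad-Lkb1 tissue and on 0 in wild-type tissue. They were thus tested only through the genotype in which they were higher, so this median and sum are a description. Of 3 mesothelial markers, Msln and Upk3b were not above background. Lrrn4 had -0.285 and did not pass, at 69.25 to 71.2 in Ad-Lkb1 tissue, against 82.1 to 89.05 in wild-type tissue. It cleared background on 1 array in Ad-Lkb1 tissue and on 3 in wild-type tissue, so it was tested only through the latter.

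**Figure D4:**
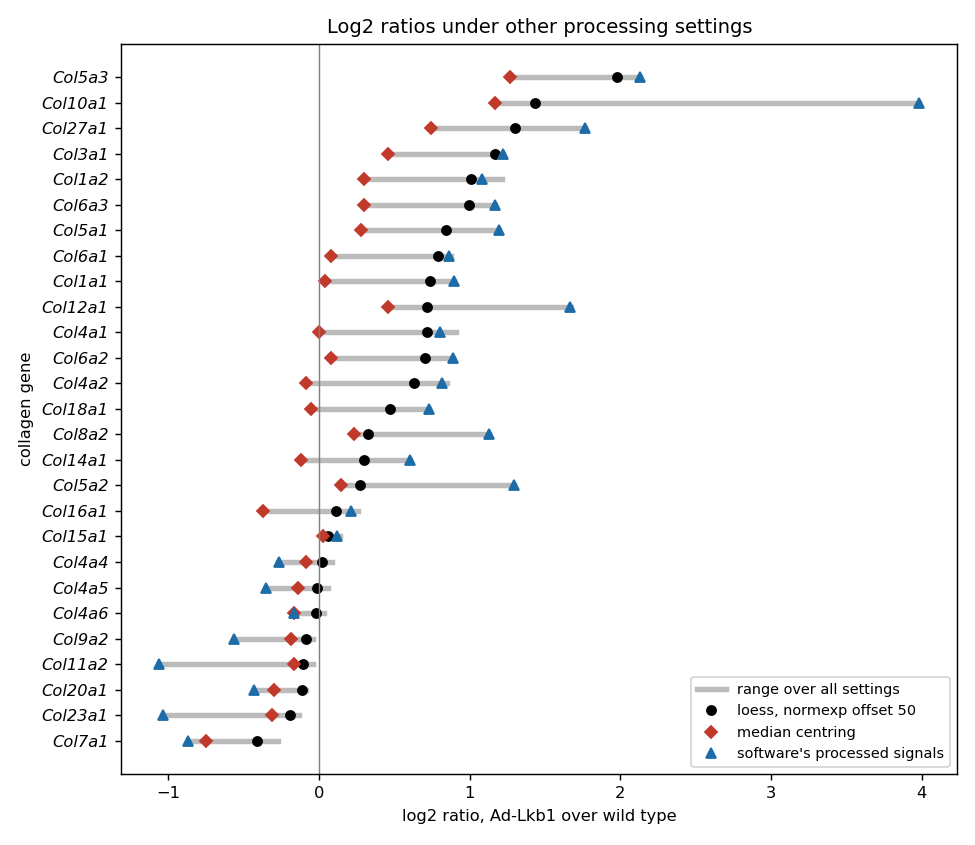
Horizontal axis, log2 of Ad-Lkb1 over wild-type signal for the 27 collagen genes under the processing used here (black), with median centring (red diamonds) and from the software's processed signals (blue triangles); grey bars span all settings, those that leave out an array included. Median centring puts Col3a1 at 0.46 and Col1a1 at 0.04, with the median of all features at -0.42. The processed signals put Col10a1 at 3.98.

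Across these settings the mean ratio of each of the 11 genes that rose stayed above 0 wherever it was tested. It ran from 1.27 to 2.13 for Col5a3, from 0.46 to 1.22 for Col3a1 and from 0.75 to 1.77 for Col27a1. With median centring Col5a3, Col10a1, Col27a1, Col3a1 and Col12a1 still passed.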

How the data were processed

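Gene expression was measured in 3 Ad-Lkb1 and 3 wild-type samples on 3 arrays of a single slide and scan, so neither could be tested as a block. Per the file headers, the deposited scanner files give median spot and background intensity in each channel, and the software's processed signals, background-subtracted and dye-normalised, with their log10 ratio (red, Cy5, over green, Cy3). They were made with Agilent Feature Extraction 11.5, per the submitters' processing notes. The deposited value table holds that log10 ratio (correlation 1.0 on each array, largest difference 0.0049, column medians 0). Left out were 1 stray line and 1 empty feature (array 1) and 2 truncated features (array 3). The array is annotated on mm9 per the file headers, and none of its coordinates were used.

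The plan named mean signals. The files hold medians, which were used. The work was done with limma 3.58.1 (R 4.3.3): normexp (offset 50), then loess per array, in which control spots had weight 0. Arrays were not scaled to each other. Channel levels were taken after Aquantile. Outlier-flagged spots were left out and spots of a probe averaged. A probe was kept if 1 channel or both cleared background (the software's flag) on all 3 arrays, which 25030 of 55678 probes did. Symbols came from RefSeq (GRCm38.p6) by accession, 28026 of 29796 probes with an accession matching 1 symbol. The brightest kept probe stood for a gene, giving 19327 features, 13128 of them with a symbol. Each log2 ratio, computed from the deposited intensity values, was tested against 0 with limma (lmFit, eBayes, intercept only), with Benjamini-Hochberg adjustment over all features and a threshold of 0.05. The test is paired by array, and the number of arrays, 3, limits its precision. The procedure was also run on simulated intensities, whose outcome is not reported here. There the spread was the same for all genes, unlike in these data.

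The collagen genes, their classes and the gene lists were chosen with earlier results of these data known. Values per array are given for members past the threshold, chain partners, and the 3 highest and 3 lowest mean ratios. For the making and turnover list the 6 of smallest p are named, and for each cell type list up to 2 of smallest p. A further cell type list is not reported here. Values of Col14a1, Col15a1, Col16a1, Col18a1, Lox, Bmp1, Itga1, Serpinh1, Elovl3, Fabp4, Plin1, Adipoq and Ppargc1a were added after they were seen. The same holds for Pi16, Cd14, Pvalb, Tnnt3 and Myh4. Alternatives were the background step, the starting signal, median centring, the filter, the choice of probe, the deposited ratios and leaving out each array.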

Additional observations from a re-analysis of the deposited data

How the results depend on the processing

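The number of arrays and the many probes near background limit these results. Setting by setting, values are given as collagen genes higher and lower, all features higher and lower, and the class medians where they moved. With median centring 5 and 1 collagen genes and 389 and 9708 features passed, and the fibrillar and other medians were 0.29 and -0.01. The software's processed signals gave 1 lower collagen gene (Col23a1), 529 and 279 features, and medians of 1.21 (fibrillar), -0.16 (type IV) and 0.67 (other). The deposited value table gave 1 lower collagen gene, 530 and 280 features, and medians of 1.21, -0.16 and 0.67. With no filter on dim probes 7 collagen genes were higher, 541 and 492 features passed, and the median of the other types was 0.007. That median was 0.53 with no background subtraction and 0.57 with an offset of 10. Leaving out 1 array gave 0 to 12 collagen genes higher, 0 to 1332 features higher and 0 to 720 lower, all 0 without array 1 or array 2 (limma; 3928 and 3562 features at an unadjusted p under 0.05). The cause of these shifts was not tested. Signs turned only for genes that had not passed. Col4a4 had -0.05 with no background subtraction, -0.27 with the processed signals and the deposited table, -0.082 with median centring and from -0.06 to 0.09 with an array left out. With median centring Col14a1 had -0.119, Col16a1 -0.371, Col18a1 -0.049 and Col4a2 -0.083. With an array left out Col4a5 ran from -0.144 to 0.064 and Col4a6 from -0.068 to 0.033. No other of the 27 collagen genes changed sign in any setting, and the 11 that rose had ratios above 0 in each setting that tested them. The ratios already pair the samples of an array, so the test is paired by array, and no further block could be fitted to a single group of arrays.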
